A study of Homo sapiens with 6 samples.

Results

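The genes described here are 44 that encode the DNA replication machinery and the enzymes that supply it with deoxynucleotides. They were taken by symbol from a table of 59151 genes, and the list was drawn up with earlier results of these data known. Of the 44 genes, 43 averaged 1 FPKM or more across the 6 libraries and were tested. FPKM is a count of fragments scaled by the length of the gene and by the size of the library, so levels of different genes can be set side by side. All cells were day 26 forebrain neuron progenitors grown from the human embryonic stem cell line H9. There were 3 groups of 2 libraries each: cells with shRNA2 against circRTN4(2,3), cells with shRNA1 against the same circular RNA, and cells with a scramble hairpin, whose genotype is given as WT. circRTN4(2,3) is a circular RNA of the RTN4 gene, and the 2 hairpins are short RNAs that direct its knockdown. All 6 libraries were made from total RNA after depletion of ribosomal RNA. The series was made to examine the function of this circular RNA, and the comparisons ask whether replication genes differed in level between cells with each hairpin and scramble cells. The labels do not say whether the libraries of a group came from separate cultures, and the p-values therefore reflect only how far these libraries differ, which can be technical variation.

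Replication starts when the origin recognition complex, with CDC6 and CDT1, loads the ring-shaped MCM helicase onto DNA in the G1 phase. In S phase CDC45 and the GINS complex join the helicase and turn it on, and the polymerases follow with the sliding clamp PCNA, its loader RFC and the single-strand binding protein RPA. Most of these genes are transcribed as cells enter S phase, many of them under E2F transcription factors, and in developing forebrain they mark dividing progenitors, whereas neurons have left the cell cycle. A bulk level therefore moves with the share of dividing cells as well as with the RNA of each cell, and in these bulk libraries fewer cells of a type and less RNA per cell cannot be told apart.

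The promoters of the genes held E2F-type letters more often than promoters at large. Promoters from 250 bases before to 50 bases after the start site were given for 38 of the 44 genes (RefSeq, GRCh38.p14). The 8-letter E2F-type strings TTTCCCGC, TTTGGCGC, TTTCGCGC and TTTGCCGC were searched on both strands, where a match to one string can overlap a match to another. At least 1 match lay in 18 of the 38 promoters (47.4%), beside 3.33% of all 27305 promoters of the table and 5.58% of the 8142 promoters of protein-coding genes that averaged 1 FPKM or more. The following windows are shown because they belong to genes on which the comparisons below turn, with at least 1 from each of the first 5 roles. The capitals mark the E2F-type matches, and each sequence reads along the strand of its gene.
MCM6 (chr2:135876510-135876607, minus strand): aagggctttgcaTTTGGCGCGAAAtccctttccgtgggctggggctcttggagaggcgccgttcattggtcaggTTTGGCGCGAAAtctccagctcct
CDC6 (chr17:40287874-40287905, plus strand): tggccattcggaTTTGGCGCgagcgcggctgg
GINS2 (chr16:85688966-85688997, minus strand): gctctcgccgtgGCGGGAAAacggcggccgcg
POLA1 (chrX:24693769-24693800, plus strand): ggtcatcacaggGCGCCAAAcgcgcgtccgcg
POLE2 (chr14:49688200-49688231, minus strand): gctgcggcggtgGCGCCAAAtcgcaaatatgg
PCNA (chr20:5126662-5126693, minus strand): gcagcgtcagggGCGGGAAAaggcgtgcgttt
TYMS (chr18:657602-657633, plus strand): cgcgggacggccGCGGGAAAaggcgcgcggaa
MCM6 had 4 matches, the most of any of the 38, in 2 places in which a match on one strand overlaps one on the other. The first of the 4 matches began 152 bases before the start site and the last began 86 bases before it. The single match began 59 bases before the start site in PCNA, 39 in TYMS, 31 in GINS2, 137 in POLA1 and 5 in POLE2, while that of CDC6 lay just past it. Matches were found in 6 of 9 licensing genes, 3 of 5 firing genes, 4 of 8 polymerase genes, 3 of 9 genes of the clamp, loader, RPA and maturation group, 1 of 4 nucleotide supply genes and 1 of 3 chromatin genes. RRM2 and FEN1, with among the largest differences below, held none in this window.

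Other strings were counted in the same windows. The string CCAAT, read on both strands, was in 57.9% of the 38 promoters and in 86.7% of 15 promoters of mitosis genes, beside 35.7% of all promoters. The string TTTGAA, the core of the cell cycle homology region of mitotic promoters, was in 1 of the 38 (that of RRM1) and in 10 of the 15 mitotic promoters, beside 15.4% of all. The GC box GGGCGG was in 73.7% of the 38 promoters, against 44.6% of all promoters and 70.9% of those of expressed protein-coding genes. A match is a string of letters and not a bound site.

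Before the comparisons, 3 features of the libraries bear on every value. The reads behind the FPKM values, recovered from the steps between low values, came to 83.6 and 79.9 M (1 M is 1e6 reads) for shRNA2, 82.4 and 78.5 M for shRNA1, and 46.6 and 77.2 M for scramble. The median SD between the libraries of a group over the 43 tested genes, on the log2(FPKM + 1) scale, was 0.03 for shRNA2, 0.03 for shRNA1 and 0.08 for scramble, and 31 of the 44 genes had their largest SD in FPKM in the scramble group. The deposited levels of the target's host gene RTN4 were 31.2 and 31.3 FPKM with shRNA2 and 34.2 and 34.7 FPKM with shRNA1, against 40.3 and 38.5 FPKM in scramble cells. The RTN4 difference did not pass the test for either hairpin (limma, Benjamini-Hochberg adjusted p = 0.0756 for shRNA2 and 0.419 for shRNA1), and a gene-level value does not measure the circular RNA. The cells carried markers of neural progenitors and of newborn neurons. Neural progenitor genes (SOX2, PAX6, VIM and 12 others) summed to 290 to 301 FPKM with shRNA2, 283 to 284 FPKM with shRNA1 and 296 to 321 FPKM in scramble cells. With shRNA2 these genes went both ways. Of the 15, 5 lay below both scramble libraries and 3 above both, beside 44.3% and 6.05% of tested protein-coding genes. With shRNA1 10 of the 15 lay below both and none above, beside 21.0% and 13.2%. None of the 15 passed the adjusted test with either hairpin. Newborn neuron genes (DCX, TUBB3, STMN2 and 12 others) summed to 381 to 384 FPKM with shRNA2, 445 to 449 FPKM with shRNA1 and 424 to 428 FPKM in scramble cells, with NEUROD6 at 0 in 3 of the 6 libraries.

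All 44 genes were detected in all 6 libraries. The clamp gene PCNA was the highest, with a mean of 21.3 FPKM over the libraries, followed by MCM7 at 14.7 FPKM and RRM1 at 12.2 FPKM. GINS3 was the lowest at 0.853 FPKM and the one gene under the filter. Its values were 0.791 and 0.874 FPKM with shRNA2 and 0.758 and 0.780 FPKM with shRNA1, against 0.977 and 0.942 FPKM in scramble cells. Both knockdown groups of GINS3 lay below scramble without overlap, but it was not tested. Each gene drew on many reads: with annotated lengths, which only approximate the authors' own, the lowest library of a gene held from about 122 reads (TK1) to 2964 reads, with a median of 758, and the counting error at that median was 3.63%.

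**Figure D1:**
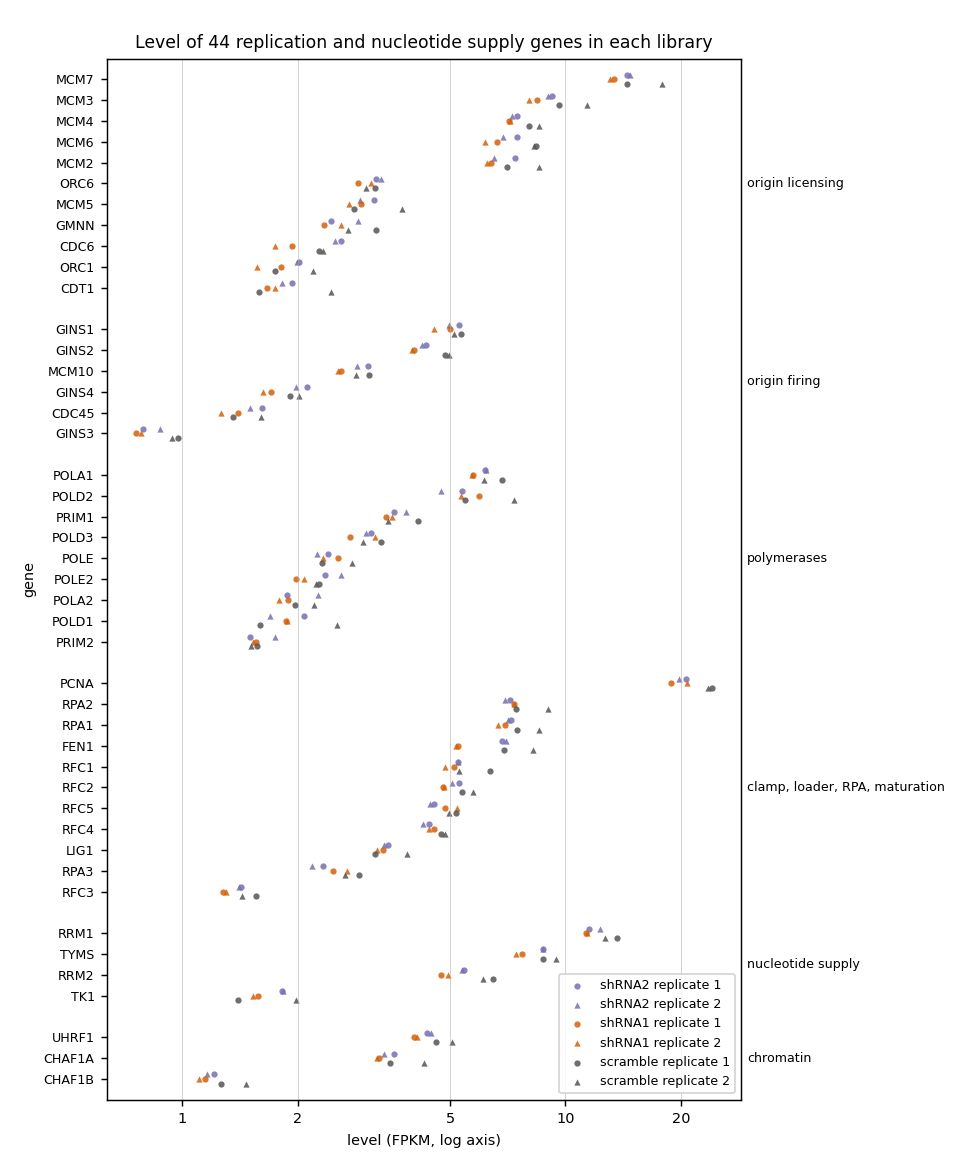
Level in FPKM (log axis) of each of the 44 genes, grouped by role, with 1 point per library in the order shRNA2, shRNA1, scramble. PCNA sits at 18.8 to 24.1 FPKM and GINS3 below 1 FPKM; the scramble libraries have the largest SD in 31 of the 44 genes.

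Relative to scramble, most of the genes stood lower with shRNA1, and no difference passed the test. Of the 43 tested genes 42 had a log2 fold change below 0, with a median of -0.15, beside a median of -0.00 over all 18162 tested genes, of which 51.1% lay below 0. None of the 43 passed an adjusted p of 0.05 (limma, Benjamini-Hochberg over all tested genes), where the background was 0.033% of genes called. At an unadjusted p under 0.05, 14 of the 43 passed, all lower, beside 5.15% of all tested genes. The shRNA1 libraries both lay below both scramble libraries in 28 of the 43 genes, beside 18.9% of all tested genes, and in none of the 43 both above, beside 15.8%. All 43 are protein-coding, and over the 10141 tested protein-coding genes the median with shRNA1 was -0.01, 55.2% lay below 0 and 21.0% lay below scramble without overlap. Ranked among all tested genes, 36 of the 43 lay in the lowest 25% of fold changes and none in the highest 25%. The count of 42 below 0 was the same with median-of-ratios scaling and with quantile normalization.

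With shRNA2 the genes did not stand apart from the rest of the table in the same way. Of the 43 genes 34 had a log2 fold change below 0 and the median was -0.09, beside a median of -0.06 over all tested genes, of which 67.7% lay below 0. None of the 43 passed the adjusted test, where 0.628% of all genes were called, and 7 passed at an unadjusted p under 0.05, all lower, beside 14.4% of all genes. The shRNA2 libraries lay below both scramble libraries in 18 of the 43 genes, beside 34.4% of all genes, and above both in 3, beside 13.3%. Among the tested protein-coding genes 81.6% lay below 0 with shRNA2, the median was -0.09, and 44.3% lay below scramble without overlap and 6.05% above, so the replication genes were near this background. Of the 43, 8 lay in the lowest 25% of all fold changes and 7 in the highest 25%, and among protein-coding genes 7 lay in the lowest 25% and 12 in the highest 25%. With median-of-ratios scaling or quantile normalization 25 of the 43, not 34, lay below 0. Both hairpins were compared with the same scramble libraries, so these sets of values are not independent.

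**Figure D2:**
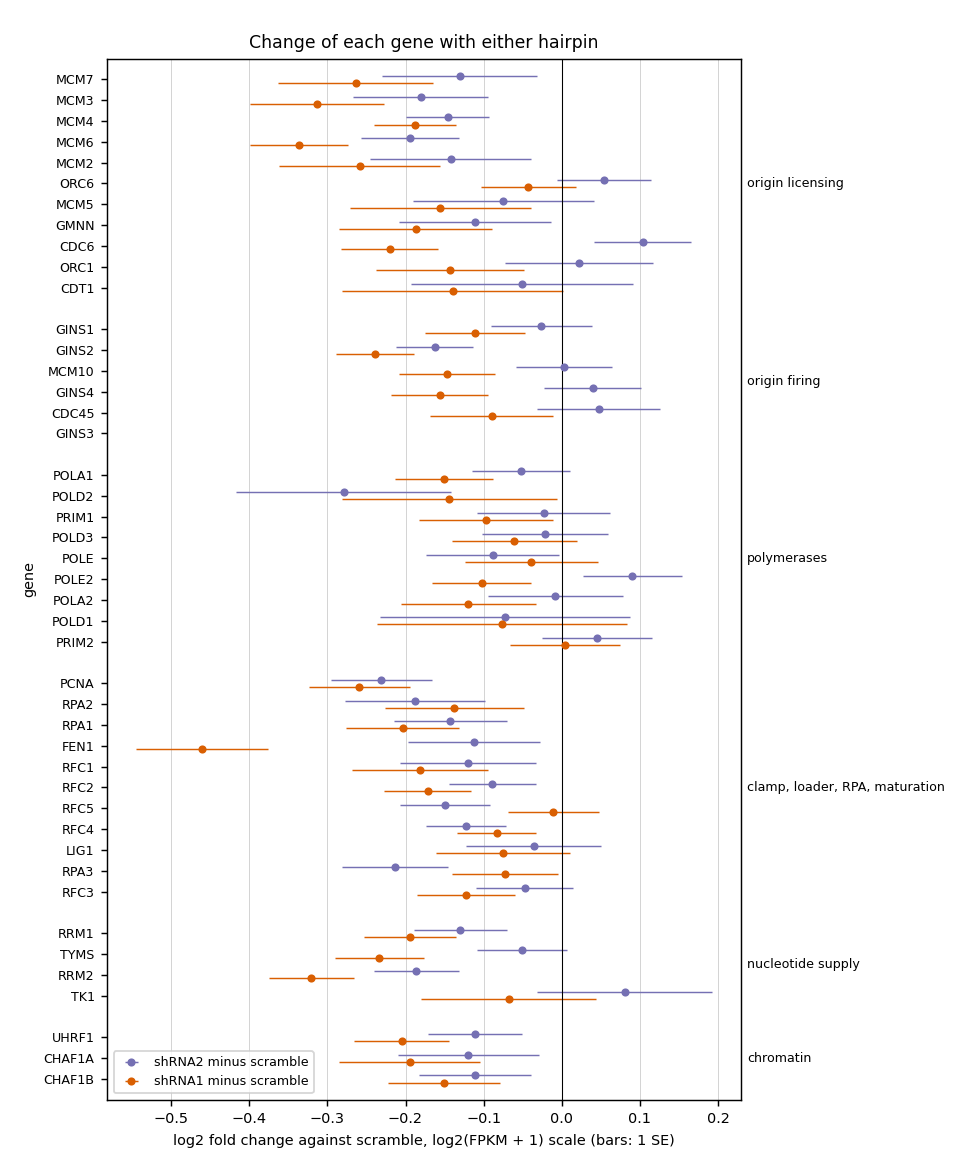
Log2 fold change of each tested gene against scramble, on the log2(FPKM + 1) scale, for shRNA2 and for shRNA1, with bars of 1 SE. FEN1 with shRNA1 lies farthest left at -0.46; CDC6 and POLE2 lie on opposite sides of 0 for the 2 hairpins, and GINS3 has no point because it was under the filter.

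Taken as a single contrast, the mean of both knockdown groups against scramble gave a median of -0.11 over the 43 genes, beside -0.03 over all tested genes. None passed the adjusted test in limma, where 0.0826% of all genes were called, and the smallest adjusted p was 0.155, for RRM2. At an unadjusted p under 0.05, 12 passed, all lower, beside 9.56% of all genes. In 15 of the 43 genes every knockdown library was lower than either scramble library, beside 12.6% of all tested genes, and in none was every one higher, beside 5.87%.

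The origin licensing genes, which load the helicase, were lower with shRNA1 in 11 of 11, with a median log2 fold change of -0.19, and none passed the adjusted test. MCM6, a helicase subunit, had 7.46 and 6.87 FPKM with shRNA2 and 6.63 and 6.16 FPKM with shRNA1, against 8.37 and 8.30 FPKM in scramble cells. Every knockdown library of MCM6 was below both scramble libraries, which differed from each other by less than any of them differed from a knockdown library. The MCM6 fold change was -0.19 ± 0.06 with shRNA2 and -0.34 ± 0.06 with shRNA1 (log2, SE). With shRNA2 it was -0.12 with median-of-ratios scaling and -0.09 with quantile normalization. The limma adjusted p was 0.201 with shRNA2 and 0.301 with shRNA1.

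The other subunits of the helicase ring gave the same order of group means. MCM3 had 9.24 and 8.98 FPKM with shRNA2 and 8.42 and 8.04 FPKM with shRNA1, against 9.59 and 11.4 FPKM in scramble cells. MCM4 had 7.49 and 7.27 FPKM with shRNA2 and 7.12 and 7.16 FPKM with shRNA1, against 8.03 and 8.52 FPKM in scramble cells. For both genes the groups did not overlap, but the scramble libraries of MCM3 were farther apart than its lower scramble library was from the higher shRNA2 one. MCM7 had 14.5 and 14.7 FPKM with shRNA2 and 13.4 and 13.1 FPKM with shRNA1, against 14.5 and 17.8 FPKM in scramble cells, so that scramble replicate 1 stood at the shRNA2 level. Its shRNA2 fold change of -0.13 was 0.01 with quantile normalization and also 0.01 without scramble replicate 2. Across the 6 subunits MCM7 was the highest and MCM5 the lowest in every library, with a ratio of 4.57 to 5.15, and their sum was 49.3 and 47.2 FPKM with shRNA2 and 44.9 and 43.4 FPKM with shRNA1, against 50.3 and 58.3 FPKM in scramble cells. MCM7 shares exon sequence with AP4M1 on the opposite strand, and the strand setting of the counting is not given in the sources used here.

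CDC6, the loading factor that recruits the helicase to origins, differed from the ring subunits. It had 2.59 and 2.51 FPKM with shRNA2 and 1.93 and 1.74 FPKM with shRNA1, against 2.27 and 2.33 FPKM in scramble cells. The shRNA2 libraries lay above both scramble libraries and the shRNA1 libraries below both, with log2 fold changes of 0.10 ± 0.06 with shRNA2 and -0.22 ± 0.06 with shRNA1 (SE). Between the hairpins the log2 fold change of shRNA2 over shRNA1 was 0.32 ± 0.06, with a limma adjusted p of 0.149, the smallest of the 43 genes in that comparison. It passed, at 0.0490, when protein-coding genes alone were tested. ORC6, a subunit of the origin recognition complex, was likewise above both scramble libraries with shRNA2 (3.21 and 3.31 FPKM, against 3.18 and 3.02 FPKM in scramble cells) at a fold change of 0.05. The remaining licensing genes MCM2, MCM5, ORC1, CDT1 and GMNN, which encodes the CDT1 inhibitor geminin, had log2 fold changes from -0.14 to 0.02 with shRNA2 and from -0.26 to -0.14 with shRNA1, and all 5 overlapped scramble with shRNA2.

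Among the genes that fire origins, GINS2 alone of the 5 tested stood below scramble without overlap with both hairpins. GINS2, a subunit of the GINS complex, had 4.31 and 4.22 FPKM with shRNA2 and 4.02 and 3.97 FPKM with shRNA1, against 4.84 and 4.96 FPKM in scramble cells. The log2 fold change was -0.16 ± 0.05 with shRNA2 (SE, limma adjusted p = 0.185) and -0.24 ± 0.05 with shRNA1 (adjusted p = 0.324). With shRNA2 it was -0.09 with median-of-ratios scaling and with quantile normalization. GINS2 overlaps GSE1 on the opposite strand, whose own fold changes were -0.15 with shRNA2 and -0.02 with shRNA1.

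The other firing genes were lower with shRNA1 and near scramble with shRNA2. GINS4 had 2.12 and 1.98 FPKM with shRNA2 and 1.70 and 1.62 FPKM with shRNA1, against 1.91 and 2.02 FPKM in scramble cells. MCM10, a scaffold that helps the helicase start, had 3.06 and 2.86 FPKM with shRNA2 and 2.59 and 2.55 FPKM with shRNA1, against 3.06 and 2.84 FPKM in scramble cells. In both genes the shRNA1 libraries stood alone at the low end and the shRNA2 and scramble libraries overlapped. GINS1 had 5.27 and 4.96 FPKM with shRNA2 and 4.99 and 4.54 FPKM with shRNA1, against 5.33 and 5.11 FPKM in scramble cells. CDC45 overlapped scramble with either hairpin.

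The polymerase genes showed the smallest differences of the 6 roles with shRNA1, at a median log2 fold change of -0.10, and with shRNA2 their median was -0.02. That shRNA2 median turned positive, to 0.04 with median-of-ratios scaling and 0.03 with quantile normalization. POLA1, the catalytic subunit of the primer-making polymerase alpha, had 6.18 and 6.22 FPKM with shRNA2 and 5.75 and 5.70 FPKM with shRNA1, against 6.82 and 6.12 FPKM in scramble cells. The shRNA1 libraries of POLA1 lay below all others, and the shRNA2 libraries lay between the scramble ones.

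POLE2, the second subunit of the leading-strand polymerase epsilon, followed CDC6. It had 2.35 and 2.59 FPKM with shRNA2 and 1.99 and 2.08 FPKM with shRNA1, against 2.28 and 2.24 FPKM in scramble cells. The log2 fold change was 0.09 ± 0.06 with shRNA2 and -0.10 ± 0.06 with shRNA1 (SE), and the difference between the hairpins of 0.19 ± 0.06 had a limma adjusted p of 0.258. POLD2, a subunit of polymerase delta, went the other way. It had 5.38 and 4.74 FPKM with shRNA2 and 5.96 and 5.35 FPKM with shRNA1, against 5.47 and 7.33 FPKM in scramble cells. With shRNA2 its log2 fold change of -0.28 was the lowest of the 43, yet its SE of 0.14 was among the largest, and scramble replicate 1 stood close to the higher shRNA2 library. POLA2 had 1.88 and 2.26 FPKM with shRNA2 and 1.89 and 1.79 FPKM with shRNA1, against 1.97 and 2.20 FPKM in scramble cells. PRIM1, PRIM2, POLD1, POLD3 and POLE overlapped scramble with both hairpins, at fold changes from -0.09 to 0.05 with shRNA2 and from -0.10 to 0.00 with shRNA1.

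The clamp, loader, RPA and maturation genes were lower in 11 of 11 with either hairpin, at medians of -0.12 with shRNA2 and -0.14 with shRNA1. Of tested protein-coding genes 81.6% lay below 0 with shRNA2 and 55.2% with shRNA1. The shRNA2 median of the 11 was -0.05 with median-of-ratios scaling and with quantile normalization. With shRNA2 the count was 9 of 11 after median-of-ratios scaling and 10 of 11 after quantile normalization, and with shRNA1 10 of 11 after quantile normalization. PCNA, the sliding clamp that tethers polymerases, had 20.6 and 19.8 FPKM with shRNA2 and 18.8 and 20.8 FPKM with shRNA1, against 24.1 and 23.6 FPKM in scramble cells. The knockdown libraries of the 2 hairpins overlapped each other and all 4 lay below scramble. The log2 fold change was -0.23 ± 0.06 with shRNA2 and -0.26 ± 0.06 with shRNA1 (SE). The limma adjusted p of 0.166 with shRNA2 was the smallest of the 43 genes in that comparison. The shRNA2 fold change of PCNA shrank to -0.15 with median-of-ratios scaling and to -0.06 with quantile normalization. The smallest adjusted p then belonged to CDC6 with the former scaling and to RPA3 with the latter. Reads on the pseudogene PCNAP1 were at most 0.1185 FPKM in any library.

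FEN1, the nuclease that trims Okazaki fragments, gave the largest difference of the 43 with shRNA1 on the log2(FPKM + 1) scale. Between the hairpins it was also the largest on that scale, while in percent of FPKM CDC6 differed more, with shRNA2 38.8% above shRNA1 for CDC6 and 32.5% above for FEN1. It had 6.83 and 6.98 FPKM with shRNA2 and 5.24 and 5.19 FPKM with shRNA1, against 6.90 and 8.25 FPKM in scramble cells. The shRNA1 libraries stood 31.2% below the scramble mean, while the shRNA2 libraries enclosed the lower scramble library. The log2 fold changes were -0.11 ± 0.08 with shRNA2 and -0.46 ± 0.08 with shRNA1 (SE), with limma adjusted p of 0.511 with shRNA2 and 0.300 with shRNA1. For shRNA2 over shRNA1 the log2 fold change was 0.35 ± 0.08 with an adjusted p of 0.192, and 0.0424 when the fit held the libraries of the 2 hairpins alone. Without scramble replicate 2 the shRNA2 fold change of FEN1 was 0.0009. FEN1 (chr11:61792911-61797238, GRCh38.p14) shares exon sequence with FADS2 on the same strand and TMEM258 on the opposite one. FADS2 had 11.01 and 10.7 FPKM with shRNA2 and 11.01 and 10.7 FPKM with shRNA1, against 10.4 and 12.5 FPKM in scramble cells, and its fold change between the hairpins was -0.00.

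Of the clamp loader, RFC2 had 5.26 and 5.04 FPKM with shRNA2 and 4.79 and 4.83 FPKM with shRNA1, against 5.37 and 5.72 FPKM in scramble cells. All 4 knockdown libraries of RFC2 lay below scramble, at log2 fold changes of -0.09 with shRNA2 and -0.17 with shRNA1. RFC1, RFC3, RFC4, RPA1 and RPA2 also lay below scramble without overlap with both hairpins, at fold changes from -0.19 to -0.05 with shRNA2 and from -0.20 to -0.08 with shRNA1. With PCNA and RFC2 these made 7 of the 11 genes, beside 12.6% of all tested genes and 15.2% of protein-coding ones. A subset ran lower with shRNA2 than with shRNA1: the loader subunits RFC4 and RFC5 and the RPA subunits RPA2 and RPA3 were the 4 of the 43 genes in which both shRNA2 libraries lay below both shRNA1 libraries, beside 46.6% of all tested genes. For RFC4 and RPA2 this difference turned positive with either other scaling. RFC5 overlaps WSB2 and RFC4 overlaps EIF4A2 on the opposite strand. The log2 fold change of shRNA2 over shRNA1 was -0.37 for WSB2, beside -0.14 for RFC5, and -0.27 for EIF4A2, beside -0.04 for RFC4, and reads shared between the strands cannot be told apart. LIG1, the ligase that joins the fragments, overlapped scramble with both hairpins, at log2 fold changes of -0.04 with shRNA2 and -0.07 with shRNA1.

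Of the 4 nucleotide supply genes, those of ribonucleotide reductase stood lower with both hairpins, and all 4 were lower with shRNA1. RRM2, the regulated small subunit that makes deoxynucleotides in S phase, had 5.45 and 5.38 FPKM with shRNA2 and 4.74 and 4.94 FPKM with shRNA1, against 6.49 and 6.11 FPKM in scramble cells. The 3 groups of RRM2 did not overlap. The log2 fold change was -0.19 ± 0.05 with shRNA2 (SE, limma adjusted p = 0.178) and -0.32 ± 0.05 with shRNA1 (adjusted p = 0.288). With shRNA2 it was -0.11 with median-of-ratios scaling and -0.09 with quantile normalization. RRM1, the large subunit, had 11.6 and 12.3 FPKM with shRNA2 and 11.3 and 11.4 FPKM with shRNA1, against 13.6 and 12.7 FPKM in scramble cells. Its shRNA2 fold change of -0.13 turned to 0.01 with quantile normalization.

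TYMS, the thymidylate synthase, separated the hairpins. It had 8.73 and 8.72 FPKM with shRNA2 and 7.71 and 7.43 FPKM with shRNA1, against 8.72 and 9.44 FPKM in scramble cells. The shRNA2 libraries sat at the lower scramble library and the shRNA1 libraries below it, with log2 fold changes of -0.05 ± 0.06 with shRNA2 and -0.23 ± 0.06 with shRNA1 (SE). With shRNA2 the fold change of TYMS was 0.06 with quantile normalization and 0.03 with median-of-ratios scaling. TYMS overlaps ENOSF1 and TYMSOS on the opposite strand, which stood at up to 2.84 FPKM each. The log2 fold change of shRNA2 over shRNA1 was 0.16 for ENOSF1 and 0.09 for TYMSOS, beside 0.18 for TYMS. Reads shared between the strands cannot be told apart here either. TK1, the thymidine kinase that salvages thymidine in S phase, had 1.82 and 1.84 FPKM with shRNA2 and 1.58 and 1.53 FPKM with shRNA1, inside the range of 1.40 and 1.98 FPKM of the scramble libraries.

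The 3 chromatin genes were lower in 3 of 3 with either hairpin under all 3 scalings. On the deposited scale 81.6% of tested protein-coding genes lay below 0 with shRNA2 and 55.2% with shRNA1. UHRF1, which brings maintenance DNA methylation to new strands, had 4.35 and 4.45 FPKM with shRNA2 and 4.02 and 4.10 FPKM with shRNA1, against 4.61 and 5.07 FPKM in scramble cells. CHAF1A, the large subunit of the histone chaperone CAF-1, had 3.58 and 3.37 FPKM with shRNA2 and 3.26 and 3.23 FPKM with shRNA1, against 3.48 and 4.27 FPKM in scramble cells. CHAF1B, its second subunit, had 1.21 and 1.16 FPKM with shRNA2 and 1.14 and 1.10 FPKM with shRNA1, against 1.26 and 1.46 FPKM in scramble cells. UHRF1 and CHAF1B lay below scramble without overlap with both hairpins, beside 15.2% of tested protein-coding genes. The smallest limma adjusted p among the 3 was 0.381 with shRNA2 and 0.441 with shRNA1.

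Set against each other, the hairpins differed in the same direction for most of the genes. The log2 fold change of shRNA2 over shRNA1 was above 0 in 37 of the 43, with a median of 0.08, whereas the median of all tested genes was -0.06 and 66.9% of them lay below 0. Both shRNA2 libraries lay above both shRNA1 libraries in 29 of the 43 genes, beside 16.6% of all tested genes and 12.9% of protein-coding ones. Of the 43 genes 35 lay in the highest 25% of all fold changes and none in the lowest 25%. None passed the adjusted test, and neither did any other gene (limma, 0% called). That fit shares 1 estimate of spread over all 3 groups, including scramble, the most spread. When the libraries of the 2 hairpins were fitted alone, 957 of 18162 genes were called, and FEN1 was the 1 of the 43. In the fit of all groups 5 of the 43 passed at an unadjusted p under 0.05, all higher, beside 4.03% of all genes. Those 5 were CDC6, FEN1, GINS4, POLE2 and TYMS. By role the medians were 0.12 for licensing, 0.14 for firing, 0.04 for polymerases, 0.04 for the clamp group, 0.14 for nucleotide supply and 0.08 for chromatin genes. The count above 0 was 40 with median-of-ratios scaling and 39 with quantile normalization.

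**Figure D3:**
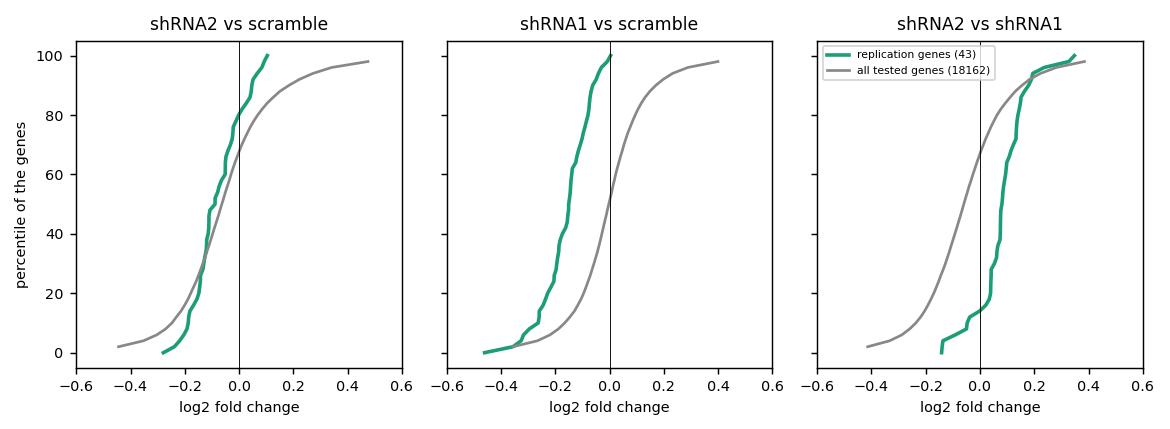
Percentile against log2 fold change for the 43 tested replication genes and for all 18162 tested genes, in shRNA2 against scramble, shRNA1 against scramble and shRNA2 against shRNA1. The replication genes lie left of the other genes with shRNA1 (medians -0.15 and -0.00), close to them with shRNA2 (-0.09 and -0.06) and right of them between the hairpins (0.08 and -0.06).

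The position of shRNA2 cells relative to scramble depended on what the genes were measured against. The 44 genes summed to 212 and 208 FPKM with shRNA2 and to 197 and 196 FPKM with shRNA1, against 224 and 239 FPKM in scramble cells, so both hairpins lay below scramble. All protein-coding genes together summed to 71747 and 70838 FPKM with shRNA2 and to 78022 and 77993 FPKM with shRNA1, against 78847 and 82727 FPKM in scramble cells. Per 1000 FPKM of protein-coding genes, the 44 genes held 2.96 and 2.94 FPKM with shRNA2 and 2.53 and 2.52 FPKM with shRNA1, against 2.84 and 2.89 FPKM in scramble cells. On this relative scale shRNA2 lay above scramble and shRNA1 below, without overlap. The scale divides 1 sum by another, and abundant genes weigh most in a sum. Gene by gene, the shRNA2 median of the 43 stayed below 0, at -0.027 with median-of-ratios scaling and -0.026 with quantile normalization. With either, 25 of the 43 lay below 0.

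**Figure D4:**
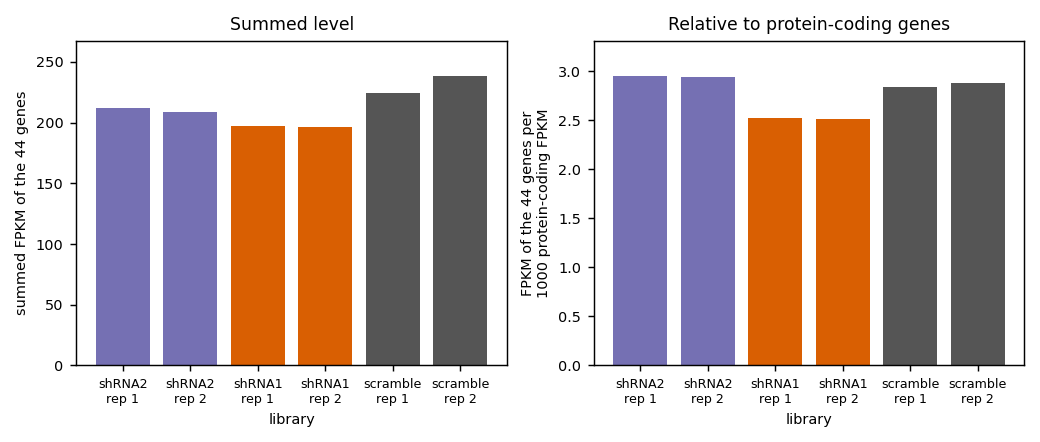
Summed level of the 44 genes in each library, in FPKM (left) and per 1000 FPKM of protein-coding genes (right). On the left both hairpins lie below the scramble values of 224 and 239 FPKM; on the right the shRNA2 bars, at 2.96 and 2.94, lie above the scramble bars and the shRNA1 bars, at 2.53 and 2.52, below.

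Part of the spread between the scramble libraries followed base composition. Scramble replicate 2 exceeded replicate 1 in all 22 genes of the G + C richer group of the 44 (48.2% to 65.0% G + C in the transcript), with a median difference of 0.22 on the log2 scale, and in 4 of the 22 poorer ones (39.1% to 48.1%), with a median of -0.05. Across the 44 genes the difference correlated with G + C content at a Pearson r of 0.911 and a Spearman rho of 0.9004, as a description within 2 libraries in which genes are not independent replicates. Across 10086 protein-coding genes r was 0.861 and rho 0.872. The most affected genes were POLD1, CDT1 and TK1, with ratios of replicate 2 to replicate 1 of 1.59, 1.54 and 1.41, and at the other end RFC1, PRIM1 and GMNN at 0.832, 0.835 and 0.847.

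The median fold change was below 0 in both groups, at -0.05 in the poorer and -0.10 in the richer with shRNA2, and at -0.14 in the poorer and -0.16 in the richer with shRNA1. Leaving out scramble replicate 1, the shallower library, called 4 of the 43 genes lower with shRNA2 and the same 4 in the pooled contrast: FEN1, MCM3, MCM7 and RPA2. Their limma adjusted p then lay between 0.0296 and 0.0475. With that library left out 13.3% of all tested genes were called with shRNA2 and 2.79% in the pooled contrast, beside 9.30% of the 43 in each. With shRNA1 none was called. Those 4 calls rest on 1 scramble library, and leaving out replicate 2 instead called none of the 43 against scramble. The part of base composition in the differences between groups was not tested.

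**Figure D5:**
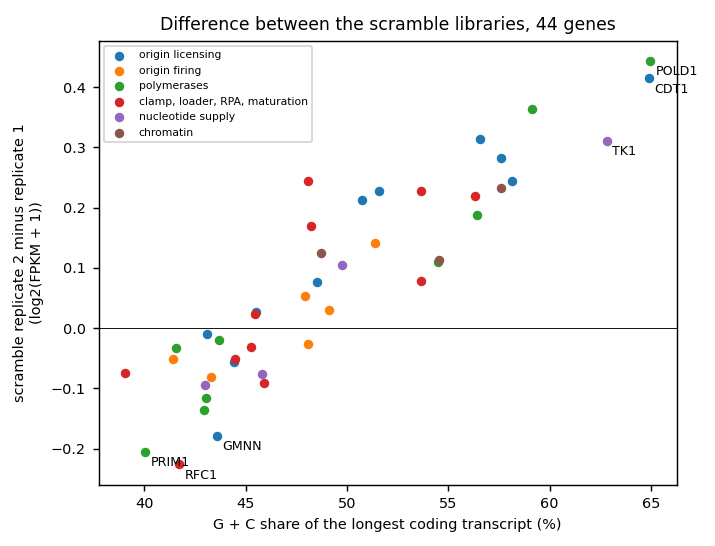
Difference between the scramble libraries (replicate 2 minus replicate 1, log2(FPKM + 1)) against the G + C share of each gene's longest coding transcript, 1 point per gene, coloured by role. Points climb with G + C content (r 0.911), up to POLD1, CDT1 and TK1, while PRIM1, RFC1 and GMNN lie lowest.

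Other genes of the replication machinery, 36 of 42 tested, were lower with shRNA2 in 27, at a median of -0.06, and with shRNA1 in 33, at a median of -0.11. Among tested protein-coding genes 81.6% lay below 0 with shRNA2, at a median of -0.09, and 55.2% with shRNA1, at -0.01. With shRNA2 these genes therefore did not stand lower than this background. None of the 36 passed the adjusted test. The shRNA2 median moved to 0.01 with median-of-ratios scaling. TOP2A, the topoisomerase that untangles replicated chromosomes, had 26.6 and 28.6 FPKM with shRNA2 and 22.6 and 22.9 FPKM with shRNA1, against 30.9 and 25.9 FPKM in scramble cells. CLSPN and TOPBP1, which signal stalled forks and help fire origins, had log2 fold changes of -0.06 (CLSPN) and -0.11 (TOPBP1) with shRNA2 and of -0.22 each with shRNA1.

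Of other nucleotide synthesis genes 30 of 32 were tested. They were lower with shRNA2 in 29 of 30, at a median of -0.15, and with shRNA1 in 18 of 30, at -0.05, beside 81.6% and 55.2% of protein-coding genes below 0 with shRNA2 and with shRNA1. Between the hairpins their median of -0.07 was close to that of all tested genes, and 15 of 30 lay below 0 with median-of-ratios scaling. The shRNA2 count was 22 with median-of-ratios scaling and 24 with quantile normalization. PRPS1, which makes the ribose precursor of all nucleotides, fell with shRNA2 to 15.5 and 16.3 FPKM, and stood at 18.5 and 18.4 FPKM with shRNA1, against 21.5 and 22.4 FPKM in scramble cells. Its log2 fold change with shRNA2 was -0.44 ± 0.05 (SE, limma adjusted p = 0.0499), the one call of the list, and -0.24 with shRNA1 (adjusted p = 0.336).

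The regulators of S-phase entry (E2F factors, pocket proteins, G1 cyclins and their inhibitors, 23 of 28 tested) gave no call with either hairpin. CDK2, the S-phase kinase, had 2.65 and 2.48 FPKM with shRNA2 and 2.42 and 2.32 FPKM with shRNA1, against 2.94 and 3.26 FPKM in scramble cells. The cyclins CCND1 and CCND2 were also below scramble in all 4 knockdown libraries, with CCND2 at 27.4 and 27.6 FPKM with shRNA2 and 30.8 and 31.2 FPKM with shRNA1, against 34.7 and 34.9 FPKM in scramble cells. In 7 of the 23 tested genes all 4 knockdown libraries lay below scramble, beside 12.6% of all tested genes and 15.2% of protein-coding ones. In 1 of the 23, the inhibitor CDKN1C, all 4 lay above scramble, beside 5.87% of all tested genes. E2F1 had 2.64 and 2.52 FPKM with shRNA2 and 2.67 and 2.58 FPKM with shRNA1, inside the 2.29 and 3.38 FPKM of the scramble libraries.

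Mitotic genes had the same order of hairpins as the replication genes. All 18 were lower with shRNA1, at a median of -0.23, beside 51.1% of all tested genes below 0. All 18 were higher with shRNA2 than with shRNA1 without overlap, at a median of 0.21, beside 16.6% of all tested genes, with no call in either comparison. With shRNA2 against scramble 12 of the 18 were lower, beside 81.6% of tested protein-coding genes. With median-of-ratios scaling and with quantile normalization 16 of the 18 were higher. Their sum was 147 and 148 FPKM with shRNA2 and 121 and 125 FPKM with shRNA1, against 153 and 147 FPKM in scramble cells. MKI67, the proliferation marker, had 13.4 and 13.5 FPKM with shRNA2 and 11.5 and 11.8 FPKM with shRNA1, against 14.9 and 13.7 FPKM in scramble cells.

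Markers of other cells differed between the groups. The summed newborn neuron genes given above were highest with shRNA1 and lowest with shRNA2. In 10 of the 11 of those genes that were tested both shRNA2 libraries lay below both shRNA1 libraries, beside 46.6% of all tested genes and 60.7% of protein-coding ones. Their median log2 fold change of shRNA2 over shRNA1 was -0.18, and -0.10 with median-of-ratios scaling and -0.03 with quantile normalization. Choroid plexus and roof plate genes summed to 6.97 to 7.66 FPKM with shRNA2 and 7.77 to 8.10 FPKM with shRNA1, against 22.04 to 24.7 FPKM in scramble cells. Of 11 such genes 6 were tested, and all 6 lay below both scramble libraries with each hairpin. Of all tested genes 34.4% did so with shRNA2 and 18.9% with shRNA1. The adjusted test called TTR, RSPO2 and RSPO3 with shRNA2, and TTR and RSPO2 with shRNA1. RSPO3 had 0.821 and 0.804 FPKM with shRNA1, against 1.76 and 1.98 FPKM in scramble cells (limma adjusted p = 0.146). TTR had 0.058 and 0.063 FPKM with shRNA2 and 0.497 and 0.785 FPKM with shRNA1, against 6.03 and 6.63 FPKM in scramble cells. Genes high in pluripotent cells summed to 21.7 to 22.1 FPKM with shRNA2 and 13.4 to 13.5 FPKM with shRNA1, against 12.01 to 12.3 FPKM in scramble cells, and LIN28A, DPPA4 and SALL4 rose with shRNA2 (limma adjusted p from 0.0244 to 0.0486). The defining pluripotency genes POU5F1 and NANOG stood at 0.069 FPKM or less in every library. The part of these cell types in the replication gene differences was not tested.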

How the data were processed

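Total RNA of 6 libraries was sequenced after ribosomal RNA depletion (RiboMinus) and KAPA RNA HyperPrep preparation, per the labels' protocols. The authors deposited 1 table of FPKM values per gene and library, per the file headers. Per the submitters' processing notes, featureCounts 2.0.1, SAMtools 1.9, HISAT2 2.1.0 and Trimmomatic 0.39 were used, on GRCh38 (hg38). Neither the annotation nor the strand setting is given in the sources used here. The FPKM values were used as deposited, and fits were made on log2(FPKM + 1), so fold changes of low genes are understated.

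Genes that averaged 1 FPKM or more were kept and limma 3.58.1 (R 4.3.3) with a mean-variance trend was fitted to all 3 groups at once. Calls were made at a Benjamini-Hochberg adjusted p under 0.05 over all tested genes. Summaries used Python 3.11.15, numpy 2.4.6 and pandas 2.3.3. The fit was tested on simulated data. Library totals were recovered from the steps of FPKM times GENCODE v29 exon length. With those lengths none of the 44 genes gave reads within 0.05 of whole numbers in every library, so no count test was run. Gene positions and promoters are RefSeq GRCh38.p14.

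The members and all lists were chosen with earlier results of these data known. Values in every library are given, within each of 6 roles, for members called in a comparison, for the 3 with the smallest unadjusted p in shRNA1 against scramble, for the 1 with the smallest in each other comparison, and for the highest in mean FPKM. TK1, ORC6 and GINS3 were added after their values were seen. Up to 3 genes of each other list with the smallest p in shRNA1 against scramble were chosen likewise, and E2F1 after its values were seen. A gene that this rule picks is not reported here. A planned search for peptide motifs was not made, since protein sequences were not used here. Alternatives were a pseudocount of 0.1, no filter and a filter at 5 FPKM, quantile normalization, median-of-ratios scaling, protein-coding genes alone, the groups compared alone, the replicate number as a block and leaving out each library.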

Additional observations from a re-analysis of the deposited data

Results flagged for a closer look

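Of the replication genes, 2 had libraries of the hairpins on opposite sides of scramble without overlap, with shRNA2 above and shRNA1 below. That is 4.65% of the 43 tested, beside 1.10% of all tested genes. Either order was looked for. The reverse order, with shRNA2 below and shRNA1 above, held for 0 of the 43, beside 3.47% of all tested genes. Whether these shares differ was not tested. CDC6 had a log2 fold change of 0.10 with shRNA2 and -0.22 with shRNA1. POLE2 had 0.09 with shRNA2 and -0.10 with shRNA1. The difference between the hairpins was tested directly in limma and did not pass for either gene (Benjamini-Hochberg adjusted p = 0.149 for CDC6 and 0.258 for POLE2), at 0.32 and 0.19 on the log2 scale, with both shRNA2 libraries above both shRNA1 libraries in each gene. Each group held 2 libraries, and both fold changes share the scramble libraries.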

How the results depend on the processing

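No replication gene was called in any comparison, except under these settings. Leaving out 1 library called 0 to 4 in the pooled contrast, 0 to 4 with shRNA2 and 0 to 1 between the hairpins. Fitting the groups compared alone called 1 between the hairpins (FEN1), and testing protein-coding genes alone called 1 (CDC6). The median log2 fold change of the 43 genes stayed below 0 against scramble and above 0 between the hairpins under every setting run. At a filter of 5 FPKM, which left 17 of the genes, it was -0.17 in the pooled contrast, -0.14 with shRNA2 and -0.20 with shRNA1. With a pseudocount of 0.1 it was -0.20 with shRNA1. With median-of-ratios scaling it was -0.027 with shRNA2 and 0.14 between the hairpins, and with quantile normalization -0.026 and 0.14. Leaving out 1 library gave -0.17 to -0.090 in the pooled contrast, -0.13 to -0.050 with shRNA2, -0.21 to -0.12 with shRNA1 and 0.07 to 0.09 between the hairpins. For the 22 genes given in full, the direction changed in 27 values under alternatives, all of them in uncalled genes and 19 of them with shRNA2, and 10 values were newly called in the same direction. With quantile normalization the log2 fold change with shRNA2 was 0.0055 for MCM7, 0.0608 for GINS1, 0.0441 for POLA1, 0.0127 for POLA2, 0.0637 for TYMS and 0.0078 for RRM1. With median-of-ratios scaling it was 0.046 for GINS1, 0.0225 for POLA1, 0.0505 for POLA2 and 0.0268 for TYMS. In the pooled contrast POLE2 was at 0.0058 with quantile normalization and 0.0251 with median-of-ratios scaling. Leaving out 1 library gave, with shRNA2, -0.2723 to 0.0106 for MCM7, -0.0378 to 0.0431 for MCM10, -0.0623 to 0.0102 for GINS1, -0.1198 to 0.0164 for POLA1, -0.0984 to 0.0819 for POLA2, -0.2261 to 0.0009 for FEN1 and -0.1027 to 0.0013 for TYMS. It gave -0.3262 to 0.0384 for POLD2 with shRNA1, -0.0308 to 0.0184 for POLE2 in the pooled contrast and -0.04 to 0.0967 for PCNA between the hairpins. The cause was not tested.

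Counts of calls over all genes moved more, and the cause was not tested. In the pooled contrast 15 genes were called, against 0 without a filter, 35 at 5 FPKM, 30 with quantile normalization, 28 with median-of-ratios scaling, 109 among protein-coding genes, 1 with the replicate block and 0 to 507 without 1 library. With shRNA2 114 were called, against 0 without a filter, 261 at 5 FPKM, 71 with quantile normalization, 374 among protein-coding genes, 1 with the groups compared alone, 0 with the replicate block and 0 to 2418 without 1 library. With shRNA1 6 were called, against 2 with a pseudocount of 0.1, 0 without a filter, 3 at 5 FPKM, 22 among protein-coding genes, 0 with the groups compared alone, 0 with the replicate block and 0 to 1 without 1 library. Between the hairpins 0 were called, against 46 at 5 FPKM, 236 among protein-coding genes, 957 with the groups compared alone and 0 to 1029 without 1 library. Of the calls with shRNA2, 34 were higher and 80 lower, against 37 and 34 with quantile normalization and 43 and 48 with median-of-ratios scaling. In the pooled contrast 1 was higher and 14 lower, against 12 and 18 with quantile normalization and 10 and 18 with median-of-ratios scaling. The differences between replicates showed no positive correlation to speak of across groups. Over all tested genes it was -0.15 between shRNA2 and scramble, -0.01 between shRNA1 and scramble and 0.01 between the hairpins. With 1 such difference per group, and that of scramble following G + C content, this cannot show whether libraries were prepared in pairs. A crossed replicate block, chosen after seeing the data, called 4 genes with shRNA2 and none of the 43.

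Each group held 2 libraries and the scramble group was the most spread, and a p above the threshold does not show that levels were equal. The counting error at the median gene was 3.63% of its level, and the part of depth in the spread was not tested.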

Other observations

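Subunits of the same complex kept unequal levels in every library. Within GINS, GINS1 was the highest and GINS3 the lowest in all 6 libraries, at ratios of 5.67 to 6.66 with shRNA2, 5.82 to 6.58 with shRNA1 and 5.43 to 5.46 in scramble cells. In the clamp loader RFC3 was the lowest of the 5 subunits in all 6 libraries, at 1.42 and 1.41 FPKM with shRNA2, 1.28 and 1.30 FPKM with shRNA1 and 1.56 and 1.43 FPKM in scramble cells. RRM1 exceeded RRM2 by 2.12 and 2.29 times with shRNA2, by 2.39 and 2.31 times with shRNA1 and by 2.099 and 2.08 times in scramble cells.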
